A study of Mus musculus with 2 samples.

Results

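Cajal-Retzius cells are among the first neurons of the cerebral cortex. They are born at the borders of the pallium, such as the septum and the cortical hem, and spread beneath the pial surface, where they secrete the glycoprotein reelin. Reelin binds the receptors Vldlr and Apoer2 (Lrp8) on migrating neurons, acts through the adaptor Dab1 and guides the layering of the cortex. Those born at the septum and hem express the p53 relative p73 (Trp73), and most Cajal-Retzius cells die once the layers have formed.

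The cells described here were taken from 1 droplet library of septal explants, and 70 were selected on measured values out of 1809 neuron-side cells, 5649 barcodes with a low mitochondrial share and 5827 barcodes in all. A barcode was kept when under 4% of its unique molecular identifiers (UMIs, each 1 captured transcript) came from mitochondrial genes. It was called neuron-side when the UMIs of 6 neuronal genes (Tubb3, Stmn2, Dcx, Elavl3, Gap43 and Mapt, together N) outnumbered those of 7 progenitor genes (Sox2, Hes1, Hes5, Vim, Nes, Fabp7 and Slc1a3, together A). A Cajal-Retzius cell then had at least 3 UMIs of Reln, at least 1 of Trp73 and none of Gad1 or Gad2, the enzymes that make GABA. Levels of these genes are therefore given as a description.

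The study asked how the transcription factor Dbx1 and the adhesion molecule protocadherin 8 shape the developing cortex. The septal explants came from 8 E11.5 PGKCre;Rosa26YFP embryos of 2 litters and 4 E12.5 Dbx1Cre;Rosa26tdTomato embryos of 2 litters, all C57BL/6J and labelled wild-type, whose cells were pooled before capture with about 10000 cells loaded. PGKCre is active in all cells, so that YFP marks the younger embryos, whereas Dbx1Cre turns on tdTomato only in cells that expressed Dbx1 or descend from them, so that the older embryos also hold cells with neither reporter. Embryos, litters and ages share 1 library and cannot be told apart otherwise, cells are not replicates, and no significance test was made. The second library, from the telencephalic vesicles of 3 wild-type C57BL/6J embryos of 2 litters, is used only to repeat the same rule. Its label reads E12, and the study gives the embryos as E11.5 to E12.

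The 70 cells made up 3.87% of neuron-side cells (exact Clopper-Pearson 95% interval 3.03 to 4.86, which like all intervals here covers counting error only). They held 1010133 UMIs in total, with a median of 12194 per cell (lowest 4284, highest 45233) and 3706 genes per cell. In the 1739 other neuron-side cells the typical barcode was slightly shallower (11041 UMIs, 3393 genes). Their median N was 80 UMIs, against 159 in Cajal-Retzius cells, and the part of this difference in the ratios below was not tested. With every cell thinned to 7500 UMIs, which left out 2 Cajal-Retzius cells among 150 shallower neuron-side cells, the medians were 2830 and 2725 genes.

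Reln (chr5:21884454-22344702, GRCm38, minus strand) gave 3 to 13 UMIs per cell with a median of 5, and Trp73 (chr4:154056253-154140208, minus strand) 1 to 10 with a median of 3. Many cells sat near the thresholds: 20 of the 70 had exactly 3 Reln UMIs and 9 had exactly 1 of Trp73. Just outside, among cells without Gad1 or Gad2 UMIs, lay 34 Trp73-positive cells with 2 Reln UMIs, 61 with 1 and 57 with none. Another 95 such cells reached the Reln threshold without Trp73, and 2 cells were set aside for Gad1 or Gad2 UMIs alone. The boundary thus ran through the 229 neuron-side cells with Trp73. A further 2 barcodes met the UMI thresholds on the progenitor side and 6 above the mitochondrial limit.

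The label was checked against Lhx1 and Lhx5, LIM homeodomain factors known from Cajal-Retzius cells that the rule did not use. Lhx1 (chr11:84518284-84525535, minus strand) was found in 67 of the 70 cells (0 to 14 UMIs, median 5) and in 17.4% of other neuron-side cells. Its level, as UMIs per 1000000 UMIs of the summed cells (CPM), was 372 against 49.3, a ratio of 7.54 (95% counting interval 6.69 to 8.5). It was 4.10 with no Trp73 threshold, 15.8 against cells without Trp73 UMIs and 29.9 against cells without Reln or Trp73 UMIs. In cells with at least 2 Gad1 or Gad2 UMIs, called GABAergic-type and at a median of 10965 UMIs per cell, 1.54% held an Lhx1 UMI. Lhx5 (chr5:120431699-120441223, plus strand) was found in 58 cells at 201 CPM against 107, 1.87-fold higher (1.61 to 2.16). At least 1 of the 2 factors was seen in 69 cells and both in 56. Neither factor is limited to these cells, as an Lhx5 UMI was found in 45.2% of other neuron-side cells and an Lhx1 UMI in 14.9% of pallial glutamatergic-type cells (at least 2 Tbr1 UMIs, under 3 of Reln and none of Gad1, Gad2, Trp73 or Isl1). After thinning to 7500 UMIs, Lhx1 was seen in 82.4% of 68 Cajal-Retzius cells, in 15.3% of the others and in 1.07% of GABAergic-type cells.

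Other known markers of Cajal-Retzius cells varied in how far they stood out. Of 15 listed, 12 reached 100 UMIs over neuron-side cells and could be compared, of which 5 were at least 2-fold higher and 2 at least 2-fold lower, with a median log2 ratio of 0.94. Over all 9769 genes compared, 5.0% were at least 2-fold higher and 5.57% at least 2-fold lower, and the median log2 ratio was 0.03. The rule chose the cells in this same library, so these counts are a description and no more is read from them. Tbr1, a T-box factor of early glutamatergic neurons of the pallium, was detected in all 70 cells at 919 CPM against 393 (2.33-fold, 2.18 to 2.50, but 1.88-fold with no Trp73 threshold). Ebf3, a helix-loop-helix factor, was 6.18-fold higher (126 against 20.4 CPM), and Cacna2d2, an auxiliary subunit of voltage-gated calcium channels, 6.47-fold. These 2 ratios were 2.98 and 3.17 with no Trp73 threshold, and 10.1 and 8.57 against cells without Reln or Trp73 UMIs. Barhl2, a homeodomain factor, was 2.90-fold higher. The calcium-binding protein calretinin (Calb2) was 1.73-fold higher and was seen in 49 of the 70 cells, while its highest cell held 49 UMIs. Its ratio depended on the rule, at 1.38 with at least 2 Reln UMIs, 2.20 with at least 5 and 2.62 with no Trp73 threshold. Zic1, a zinc finger factor of the medial wall, was at 448 against 466 CPM, and Ebf2 at 103 against 108. Eomes (Tbr2), which marks intermediate progenitors and newborn neurons, was lower, at 91.1 against 219 CPM (ratio 0.416). With at least 2 Reln UMIs the Eomes ratio was 0.534, no longer 2-fold lower. Ndnf, a secreted protein of later Cajal-Retzius cells, had 3 UMIs in all 70 cells, a ratio of 0.267 (0.0548 to 0.791). Cxcr4, the chemokine receptor that holds Cajal-Retzius cells at the pial surface, stayed under the 100 UMI minimum and is given only as its counts, 19 UMIs in 12 of the 70 cells and 57 UMIs in the 1739 others.

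The 25 genes with the highest lower limit of their ratio, a rule fixed on this comparison itself, covered several functions. The minimum of 100 UMIs counted the Cajal-Retzius cells too, and 5 of the 25 (Aldh1a1, Chl1, Pde1a, Perp and Ramp3), like 43 of all 488 genes at least 2-fold higher, passed only with their UMIs. Such genes had to differ to be compared, and their ratios are given as values only. Among regulators were Zfp503, a zinc finger repressor (14.3-fold, 11.4 to 18.0), Mab21l1 (9.77-fold) and Lhx1os, a non-coding transcript that starts beside Lhx1 on the opposite strand (496 against 43.0 CPM). How reads of the 2 strands were separated is not given in the sources used here. Aldh1a1, an enzyme that makes retinoic acid, had the highest ratio of the 25 at 18.6 (12.4 to 27.8), but its 49 UMIs came from 18 cells, 1 of which held 16. At so few UMIs per cell, a cell without one may still express it. Serpine2, a secreted protease inhibitor, was seen in 57 cells at 317 against 24.4 CPM (13-fold, 11.3 to 15).

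**Figure D1:**
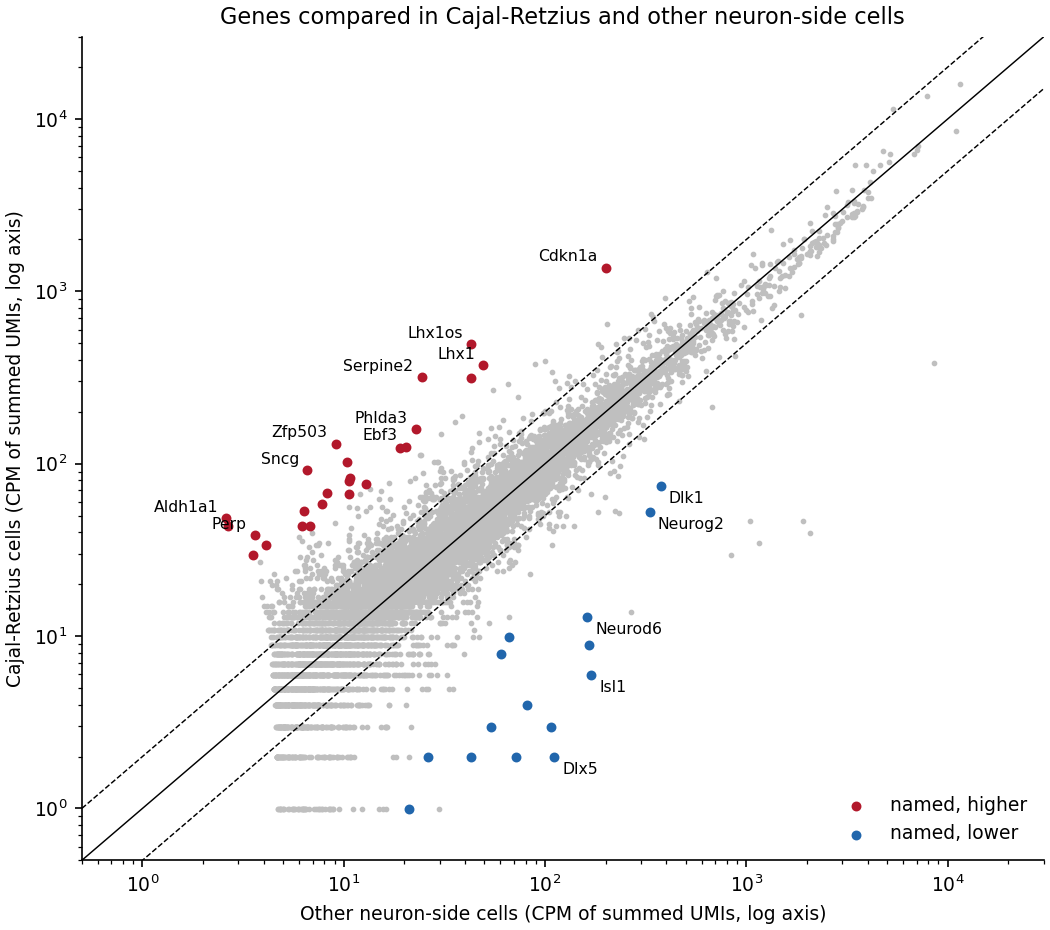
Level of each compared gene in the summed Cajal-Retzius cells (vertical) and in the summed other neuron-side cells (horizontal), in CPM on log axes, with 1 point per gene. The solid line marks equal levels and the dashed lines a 2-fold difference, and genes without a UMI in Cajal-Retzius cells are not drawn. Cdkn1a stands far above the line at 1375 against 200 CPM, and Isl1, Dlx5 and Neurod6 lie far below it.

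Chl1, a cell adhesion molecule of the L1 family, was 16.4-fold higher (43.6 against 2.66 CPM) and was seen in 23 cells. Secreted proteins or peptides included secretin (Sct, 8.11-fold), parathyroid hormone-like hormone (Pthlh, 7.46-fold), the growth arrest protein Gas6 (7.06-fold) and platelet-derived growth factor A (Pdgfa, 5.88-fold). Pthlh was concentrated in few cells, with 59 UMIs in 10 of the 70. Gamma-synuclein (Sncg, 92.1 against 6.60 CPM), the prostaglandin D synthase Ptgds (8.41-fold), the calmodulin-dependent phosphodiesterase Pde1a (8.35-fold), the receptor partner Ramp3 (8.15-fold), the galectin Lgals7 (7.36-fold), Cpne2 (7.63-fold), Fam155a (7.49-fold) and Sh3bgrl2 (6.42-fold) were also among the 25. Scn3b, an auxiliary sodium channel subunit, was 6.24-fold higher and present in 55.7% of Cajal-Retzius cells against 9.89% of the others.

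The channel list holds genes named as subunits of voltage-gated and leak channels, whatever other roles they have. Of 20 compared, 9 were at least 2-fold higher and none at least 2-fold lower (5.0% and 5.57% of all genes), with a median log2 ratio of 0.93. Beside Cacna2d2 and Scn3b the higher ones included the potassium channels Kcnc1 (4.62-fold) and Kcnk2 (3.56-fold) and the sodium channel Scn9a (2.23-fold). Cacng2 (3.09-fold), Cacnb3 (2.56-fold) and Cacng4 (2.37-fold), listed by their names as calcium channel subunits, were also among them. The vesicular glutamate transporter Slc17a6 was seen in 53 cells and was 2.16-fold higher (116 against 53.7 CPM). The GABA transporter gene Slc32a1 had no UMI in the 70 cells. Taking 3 UMIs over all Cajal-Retzius cells as the floor, it was at least 8.75-fold lower. The rule left out cells with Gad1 or Gad2 UMIs, whereas only 1470 of the 1739 reference cells had none. A low level of GABAergic genes therefore follows in part from the selection. Of 10 transmitter receptor genes compared none was at least 2-fold higher and 1 was lower, the GABA receptor subunit Gabra2 with 4 UMIs (ratio 0.439, 0.118 to 1.14).

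Genes of the p53 family and known p53 targets were compared next. Of 16 compared, 9 were at least 2-fold higher, Perp among them only through the UMIs of Cajal-Retzius cells, and none at least 2-fold lower, beside 5.0% and 5.57% of all genes. Trp73 itself was used by the rule and is not counted, and its targets overlap with those of p53. Cdkn1a (chr17:29090976-29100727, plus strand), which encodes the cell cycle inhibitor p21, was detected in all 70 cells with 1 to 68 UMIs and a median of 16. Its level was 1375 against 200 CPM, 6.86-fold higher (6.45 to 7.29). Perp, a junction protein tied to cell death, was 10.7-fold higher (7.08 to 16.0) with 39 UMIs in 21 cells, and Phlda3, which restrains Akt signalling, 6.95-fold. Ccng1 (cyclin G1) was 4.86-fold higher, Sesn2 4.85-fold, the cell death gene Bbc3 (Puma) 3.21-fold, Sesn1 2.81-fold, Trp53inp1 2.45-fold and Zmat3 2.31-fold. Trp53 was at 130 against 154 CPM and Mdm2, the ligase that degrades p53, at 129 against 94.0. Gadd45a was at 72.3 against 126 CPM and Btg2 at 220 against 337. The p53 list shares Bbc3, Bax and Pmaip1 with the list of Bcl2 family genes and caspases. Of 14 compared in the latter, 2 were at least 2-fold higher, Bbc3 among them, and none at least 2-fold lower. Over all genes the shares were 5.0% and 5.57%. Bax was at 402 against 314 CPM and Bcl2l1 at 124 against 111.

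The start sites of these genes were searched for the p53 decamer (the repeated unit of a p53 response element, whose consensus reads the same on both strands) in RefSeq promoter windows of GRCm38. Each window runs from 250 bases before to 50 after a start, and 17 of the 22 listed genes matched one. At least 1 decamer was found for 8 of the 17, including 3 of the 6 genes with a window that were at least 2-fold higher (Cdkn1a, Ccng1 and Sesn1). Bax, Gadd45a, Mdm2, Polk and Trp53, which were not at least 2-fold higher, also had one. Among all 27025 genes with a window, 9.55% had one. The list was made of the p53 family and known p53 targets, so its share is a description. No link between the decamer and a higher level is read from it. The 3 windows are shown 5′ to 3′ because Cdkn1a, Ccng1 and Sesn1 were at least 2-fold higher and hold the decamer, with decamers in capitals. A match is a run of letters and not a bound site.
Cdkn1a, chr17:29090729-29091028, plus strand: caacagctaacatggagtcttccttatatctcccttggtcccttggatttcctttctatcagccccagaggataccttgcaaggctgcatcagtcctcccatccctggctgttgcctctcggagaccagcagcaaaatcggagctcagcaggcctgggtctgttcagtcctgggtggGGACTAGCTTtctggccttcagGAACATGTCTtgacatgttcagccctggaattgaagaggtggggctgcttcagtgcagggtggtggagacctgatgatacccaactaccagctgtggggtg
Ccng1, chr11:40755237-40755536, minus strand: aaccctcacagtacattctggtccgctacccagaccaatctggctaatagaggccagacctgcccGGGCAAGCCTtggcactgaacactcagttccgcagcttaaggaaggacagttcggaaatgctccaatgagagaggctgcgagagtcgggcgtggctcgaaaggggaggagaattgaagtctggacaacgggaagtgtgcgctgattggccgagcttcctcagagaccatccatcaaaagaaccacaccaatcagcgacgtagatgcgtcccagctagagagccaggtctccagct
Sesn1, chr10:41887189-41887488, plus strand: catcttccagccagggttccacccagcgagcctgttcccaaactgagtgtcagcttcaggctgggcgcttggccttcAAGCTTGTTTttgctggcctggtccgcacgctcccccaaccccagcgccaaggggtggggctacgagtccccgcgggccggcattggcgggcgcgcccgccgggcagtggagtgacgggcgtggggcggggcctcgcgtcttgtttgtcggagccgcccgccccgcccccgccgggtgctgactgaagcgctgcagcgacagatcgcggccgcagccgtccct

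Levels of the p53 targets were set out by Reln and Trp73 class. Cdkn1a was at 1991 CPM in the 95 Trp73-positive cells with 1 or 2 Reln UMIs and at 1640 in the 57 with no Reln, against 62.7 in the 95 cells with Reln but no Trp73. Cells with neither gene had 25.1 CPM. Phlda3 was also higher in the classes with Trp73 than in those without, with 159 CPM in Cajal-Retzius cells, 192 and 158 in the Trp73-positive cells outside the rule, 10.9 with Reln alone and 5.89 with neither. Trp73-positive cells outside the rule were part of the reference, and without any Trp73-positive cell in the reference, a setting added after seeing the data, the Cdkn1a ratio was 37.5. The Reln threshold moved it too, to 10.1 with at least 2 Reln UMIs and 5.52 with at least 5, and it was 2.84 with no Trp73 threshold. Ccng1 was at 174 CPM in Cajal-Retzius cells, 173 with 1 or 2 Reln UMIs, 122 with Trp73 but no Reln and 34.1 with Reln alone. Sesn1 did not follow Cdkn1a, at 32.7, 18.8, 24.1 and 18.4 CPM in the same order.

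**Figure D2:**
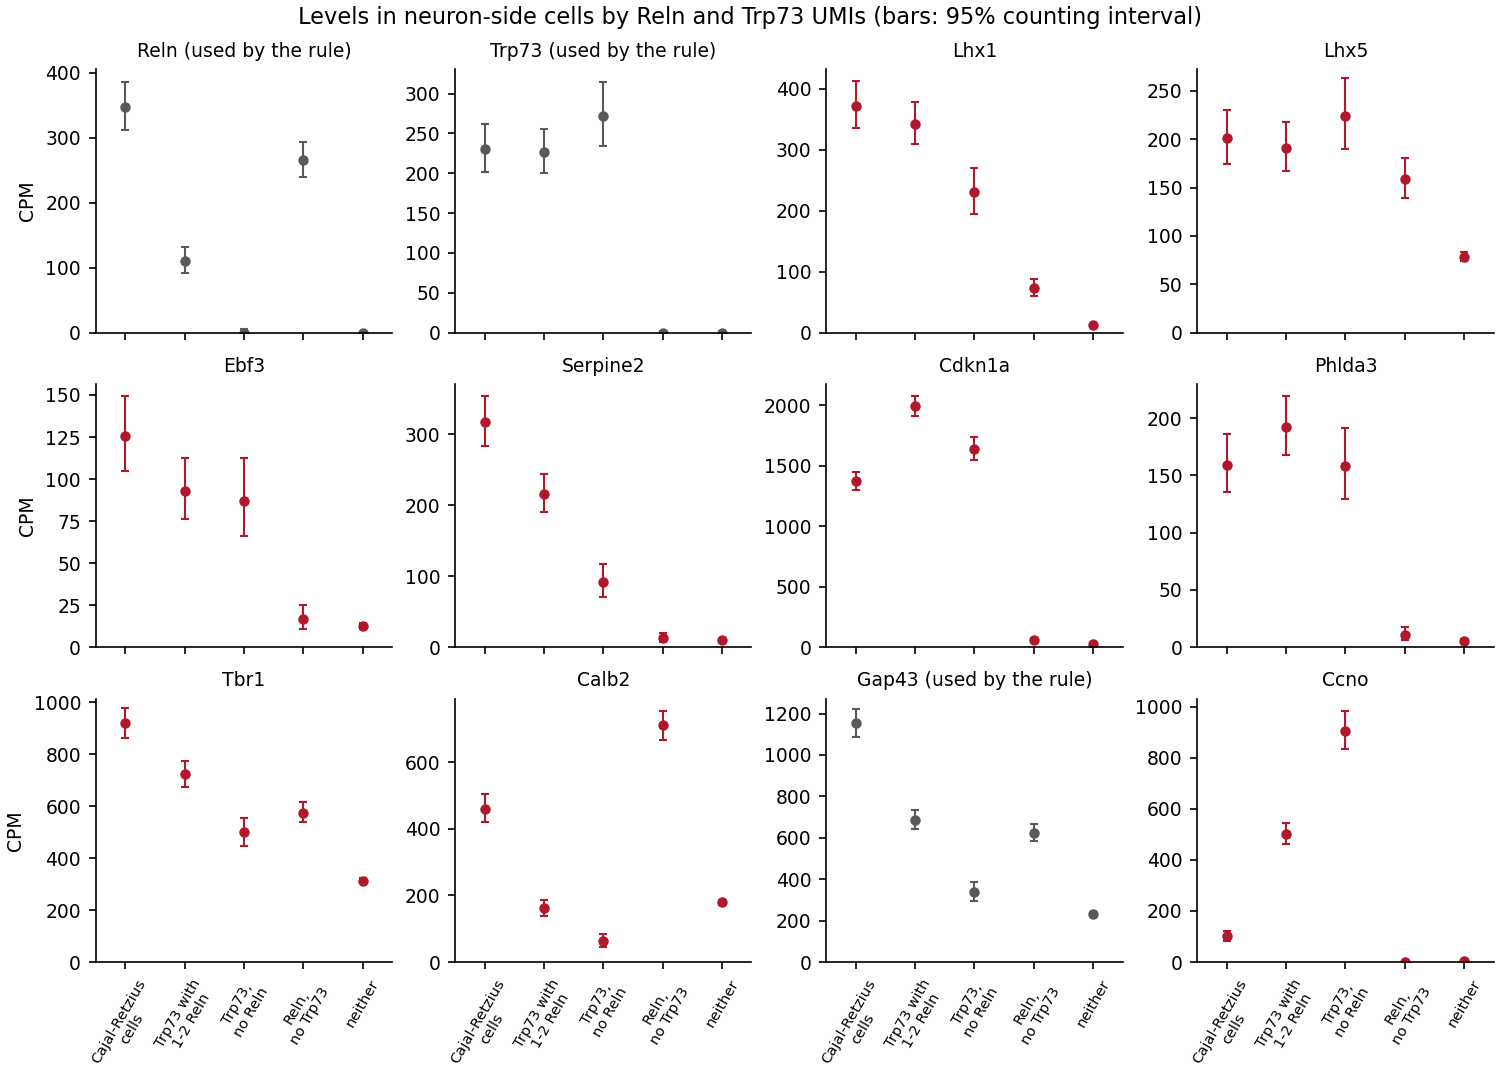
Level in CPM of 12 genes, 1 panel each, in neuron-side cells split by their UMIs of Reln and Trp73, with exact Poisson 95% counting intervals as bars. Grey points are genes the rule used. Cdkn1a and Phlda3 are high in all 3 classes with Trp73, Tbr1 is highest in Cajal-Retzius cells, Calb2 is highest in cells with Reln but no Trp73, and Ccno is highest in Trp73-positive cells without Reln.

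Identity markers were graded over the same classes. Lhx1 was at 372 CPM (336 to 412) in Cajal-Retzius cells, 343 (310 to 378) with 1 or 2 Reln UMIs, 230 with Trp73 but no Reln, 73 with Reln but no Trp73 and 12.4 with neither. The first 2 intervals overlapped. Lhx5 did not separate the Trp73-positive classes, at 201, 191 and 224 CPM. Serpine2 (317, 216 and 91.7 CPM) and Tbr1 (919, 722 and 499 CPM) were higher the more Reln the Trp73-positive cells held. Calb2 reached 711 CPM in cells with Reln but no Trp73, above the 460 of Cajal-Retzius cells. Ebf3 (17.0 CPM) and Serpine2 (13 CPM) were both low in those Reln-only cells.

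Of 59 transcription factors compared, 10 were at least 2-fold higher and 16 at least 2-fold lower (5.0% and 5.57% of all genes). Beside Lhx1, Ebf3, Mab21l1, Barhl2 and Tbr1 the higher ones were Nr2f1 (Coup-TF1, 4.17-fold, 24 UMIs in 10 cells), Pbx3 (3.64-fold), Uncx (2.28-fold), Ebf1 (2.16-fold) and Nhlh1 (2.01-fold). Emx2, a regional factor of the medial pallium, was at 351 against 181 CPM. Markers of other neuron classes were lower in part. Of 11 pallial glutamatergic markers 3 were at least 2-fold lower and 1 (Tbr1) higher, of 5 septal glutamatergic markers compared 2 were lower and none higher, and of 10 olfactory placode markers 3 were lower and 2 (Ncam1 and Ebf1) higher. The subpallial transcripts Dlx5 (2 UMIs, ratio 0.0178, 0.00216 to 0.0645) and Dlx6os1 (at least 20.9-fold lower, no UMI) had few or no UMIs. Cells with Gad1 or Gad2 UMIs were left out by the rule but kept in the reference, so these 2 values are a description. The septal factor Isl1 had 6 UMIs and was 28.5-fold lower, with a ratio of 0.0533 against cells without Gad1 and Gad2 UMIs. Neurod6, of pallial projection neurons, was at 12.9 against 161 CPM (ratio 0.0799, 0.0425 to 0.137, but 1.11 when cells were chosen without a Trp73 threshold, where the Isl1 ratio was 0.294) and the proneural factor Neurog2 6.30-fold lower. Onecut2, Foxp2 and Fezf2 were 3.22, 3.08 and 3.48-fold lower.

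**Figure D3:**
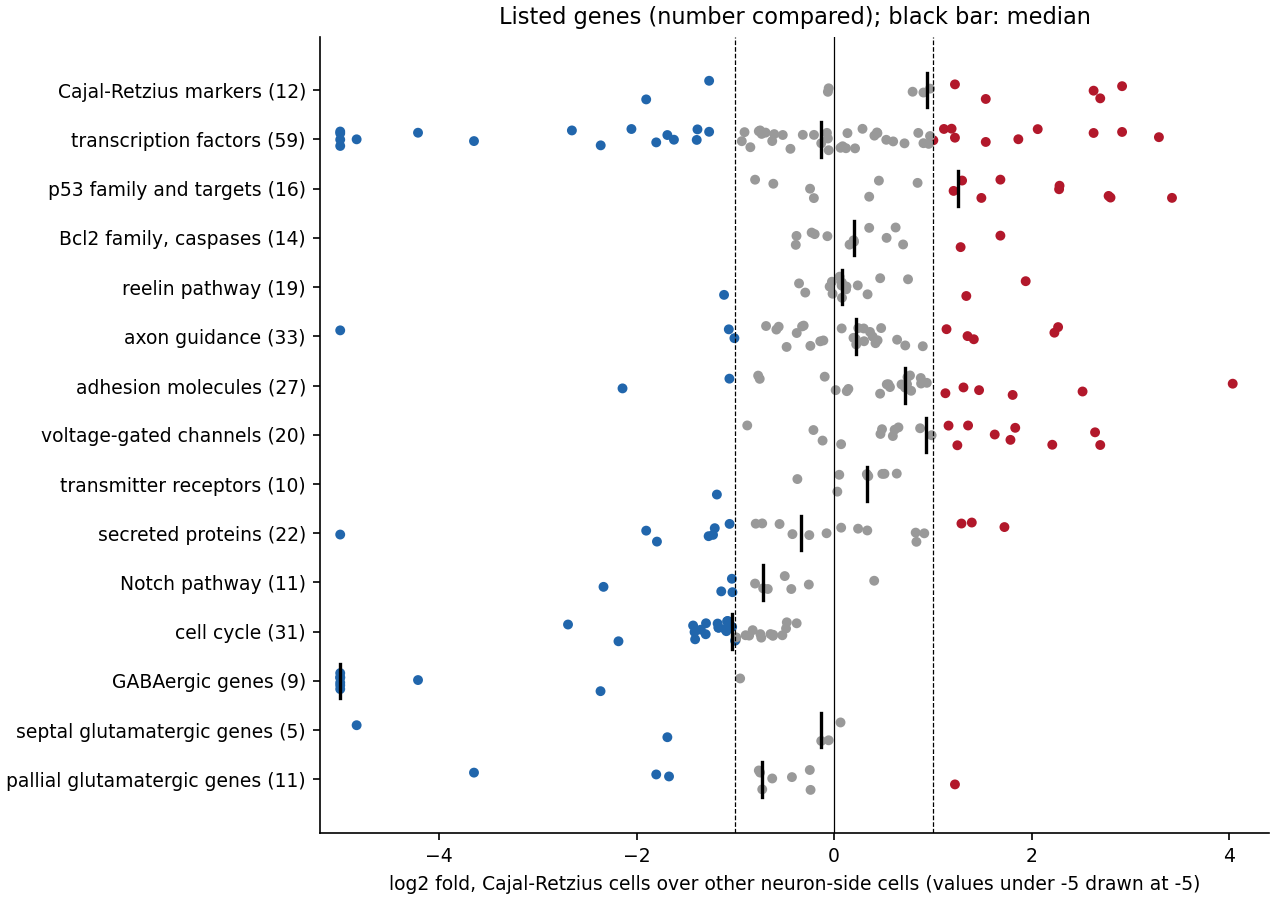
Log2 ratio of Cajal-Retzius cells over other neuron-side cells (horizontal) for each compared gene of 15 lists, with the number compared in brackets and the list median as a black bar. Red and blue points are at least 2-fold higher and lower, dashed lines mark 2-fold, and values under -5 are drawn at -5. The p53 and channel lists have no gene at least 2-fold lower, and the cell cycle list has none at least 2-fold higher.

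The cell cycle list holds replication and mitosis genes, cyclins and the inhibitors Cdkn1b and Cdkn1c. All 31 genes were compared, of which 17 were at least 2-fold lower and none was higher than in the other cells. Their median log2 ratio was -1.03, and 5.57% of all genes were at least 2-fold lower and 5.0% higher. Top2a, an enzyme of replicating and mitotic cells, was 2.69-fold lower, the replication helicase subunit Mcm2 2.66-fold and the inhibitor Cdkn1c 2.55-fold (733 against 1866 CPM). Of 11 Notch pathway genes compared 4 were at least 2-fold lower and none was 2-fold higher (5.57% and 5.0% of all genes). These were the non-canonical ligand Dlk1 (5.04-fold), Dll3 (2.21-fold), the glycosyltransferase Mfng (2.05-fold) and the Notch target Hey1 (2.04-fold). The reference is a mix that includes cycling cells. In the clustering described below, the leading genes of a cluster of 112 cells include Cenpe and those of another of 67 cells Top2a. Neither cluster held a Cajal-Retzius cell. The part of such cells in the cell cycle and Notch ratios was not tested.

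Of 19 reelin receptors and effectors compared 2 were at least 2-fold higher and 1 lower, shares near or not far above the 5.0% and 5.57% of all genes, which also stand beside the other counts of this paragraph. Vldlr was 3.84-fold higher (25 UMIs, 2.4 to 5.91), Lrp8 was at 15.8 against 20.3 CPM, and Dab1 had 6 UMIs, a ratio of 0.462 (0.168 to 1.02). Among guidance genes, 5 of 33 compared were at least 2-fold higher and 3 lower. The highest were the secreted ligand Slit1 (4.81-fold), the semaphorin Sema6a (4.69-fold, in 47 cells) and the ephrin Efna3 (2.67-fold). Of 27 other adhesion molecules 6 were at least 2-fold higher and 2 were lower. Among the 6 were contactin 2 (Cntn2, 3.50-fold) and Chl1, which was compared only through the UMIs of Cajal-Retzius cells. Of 13 cadherins compared only Cdh4 was 2-fold higher (3.07-fold) and 3 were lower (Pcdh8, Pcdh9 and Cdh10).

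Genes of the medial signalling centres went both ways. Wnt7b was 4.90-fold higher (269 against 55.0 CPM, in 56 cells) and Rspo3, a secreted enhancer of Wnt signalling, 3.96-fold (394 against 99.6 CPM, in 46 cells). They were the 2 of 15 medial genes compared that were at least 2-fold higher, and 3 were lower (5.0% and 5.57% of all genes). The median log2 ratio of the 15 was -0.05. Among the lower was Fgf15, with 8 UMIs (ratio 0.131, 0.0566 to 0.260). The choroid plexus gene Ttr had 1 UMI. The immediate early genes Junb (3.08-fold) and Egr1 (2.41-fold), which cell dissociation can raise, were at least 2-fold higher. They were the 2 of 10 compared in their list that were, and none was at least 2-fold lower (5.0% and 5.57% of all genes). Fos was at 84.1 against 42.3 CPM. The part of dissociation in these values was not tested.

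Structural and calcium-binding proteins added further differences. Of 22 cytoskeletal genes compared 4 were at least 2-fold higher and 1 lower (5.0% and 5.57% of all genes). The higher ones were the microtubule regulator Stmn4 (3.19-fold), the tubulins Tubb4a (2.33-fold) and Tubb2a (2.20-fold) and the neurofilament protein Ina (2.04-fold). Nefm was lower (32.7 against 66.4 CPM). Tubulin genes are near-identical copies, and how reads shared between them were assigned was not tested. S100a10 was 4.90-fold and the neuronal calcium sensor Hpcal1 2.25-fold higher, while the calcium buffer calbindin (Calb1) had no UMI and was at least 4.15-fold lower. Of 22 genes for secreted factors and their receptors 3 were at least 2-fold higher and 7 lower (5.0% and 5.57% of all genes). The matrix protein Edil3 (3.30-fold) led the higher ones, and the growth factor pleiotrophin (Ptn, 44.5 against 104 CPM) was among the lower.

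The 20 genes with the lowest upper limit of their ratio included globins and the haem enzyme Alas2, the subpallial factors Dlx1, Dlx2, Dlx5 and Sp9 and the antisense transcript Dlx6os1. Dlx2 had 9 UMIs in the 70 cells, at 8.91 against 165 CPM, and the calmodulin regulator Pcp4 had 4, at 3.96 against 81.8 CPM. Pnoc, a neuropeptide precursor, had 2 UMIs (ratio 0.0463, 0.00559 to 0.168) and the carbonic anhydrase Car2 had 3 (ratio 0.055, 0.0113 to 0.161). Car2 was seen in similar shares of Cajal-Retzius and other cells (4.29% and 5.92%), as was the globin Hba-a1 (45.7% and 43.6%). The reference held 19 barcodes rich in globins, and their part in the Car2, globin and Alas2 ratios was not tested. In the vesicle the Car2 ratio was 0.961. Of 9 GABAergic markers compared, Gad1 and Gad2 left out because the rule used them, 8 were at least 2-fold lower and none was higher. Among all genes 5.57% were at least 2-fold lower and 5.0% higher. As the rule left out cells with Gad1 or Gad2 UMIs and the reference kept them, these marker counts describe the selection.

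Pcdh8, the protocadherin the study follows, gave 6 UMIs in 6 of the 70 cells, at 5.94 against 16.3 CPM (ratio 0.365, 0.133 to 0.803). Dbx1 was found in 10 cells with 31 UMIs, at 30.7 against 33.6 CPM, and Nr4a2, a factor of claustrum neurons, in 5 cells with 5 UMIs. Dbx1 was higher in Trp73-positive cells just outside the rule, at 134 CPM with 1 or 2 Reln UMIs and 129 with none.

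Markers of cell types from outside the brain were also counted. Vessel genes summed to 7.92 CPM in Cajal-Retzius cells against 8.68 in the others, with 7 of 10 genes at 0. Macrophage genes summed to 19.8 against 4.08 CPM with 7 of 11 at 0, and 17 of the UMIs came from Pf4, 16 of them in 1 cell. Mesenchymal genes summed to 21.8 against 52.6 CPM. Globins and other erythroid genes summed to 595 against 15895 CPM. The embryonic globin Hbb-y alone gave 383 CPM and was seen in 98.6% of Cajal-Retzius cells and of the others alike, and 19 barcodes of the reference gave at least 1% of their UMIs to globins. Scrublet, which scores barcodes against simulated doublets, called 2 of the 70 cells and 102 of 5649 barcodes.

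The cells were not uniform among themselves. Ranked by the ratio of N to A and cut into groups of 24, 23 and 23 cells, the groups with more neuronal UMIs had more of several genes outside the rule. Ina, a neurofilament protein, was at 653 CPM (574 to 740) in the lowest group, 1293 in the middle and 2103 (1944 to 2272) in the highest. Ebf1 was at 79.9, 310 and 571 CPM, Aldh1a1 at 7.99, 48.7 and 98.0, and Tbr1 at 538, 1135 and 1153. Calb2 was at 168 CPM (129 to 215) in the lowest group and at 648 and 617 in the other 2. Nr2f1 had 22 of its 24 UMIs, and Pbx3 68 of its 103, in the highest group. Lhx1 was nearly level at 354, 362 and 405 CPM, with overlapping intervals.

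Some genes had the opposite order and were picked after their values were seen. Rspo3 was at 653, 399 and 71.8 CPM over the 3 groups, Hes6, a factor of early neuronal differentiation, at 658, 368 and 176, and Cdkn1a at 1668, 1576 and 800. Neurog2 was at 109 CPM (78.4 to 148) in the lowest group and at 9.13 and 29.4 in the others. The Neurog2 UMIs of the lowest group came from 6 of its 24 cells. The groups were cut by N and A, which the rule also used, so these values are a description.

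**Figure D4:**
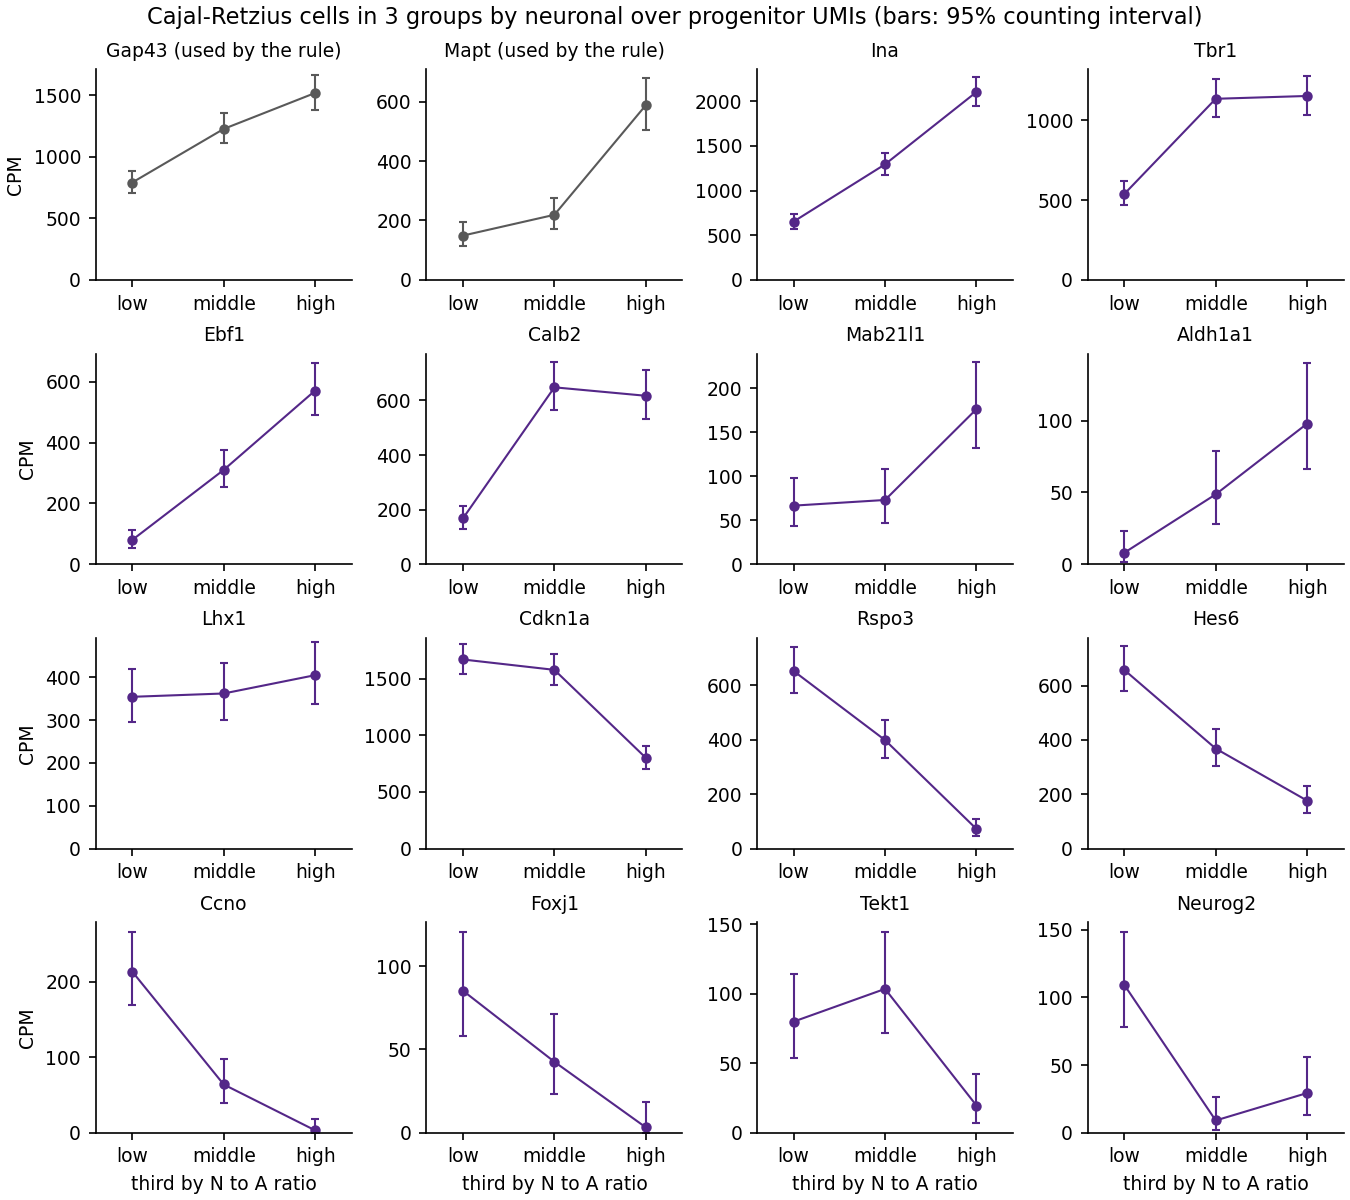
Level in CPM of 16 genes, 1 panel each, in the Cajal-Retzius cells cut into 3 groups (24, 23 and 23 cells) by the ratio of neuronal to progenitor UMIs, with exact Poisson 95% counting intervals. Ina, Ebf1 and Aldh1a1 are highest in the group with the highest ratio, Rspo3, Hes6 and Ccno are highest in the group with the lowest, and Lhx1 is nearly level.

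The lowest group also held regulators of multiciliated cells, a set singled out after their values were seen. Ccno, which drives centriole amplification in such cells, was at 213, 63.9 and 3.27 CPM over the 3 groups, and Foxj1, the master factor of motile cilia, at 85.3, 42.6 and 3.27. Tekt1, a protein of ciliary microtubules, was at 79.9, 103 and 19.6. Over all Cajal-Retzius cells Ccno was found in 14 cells, with up to 24 UMIs, and Foxj1 in 17. Both were higher in the Trp73-positive cells with less Reln. Ccno was at 502 CPM with 1 or 2 Reln UMIs and 907 with none, against 1 UMI with Reln alone and 4.74 CPM with neither. Foxj1 was at 199 and 271 CPM, and Mcidas, a coactivator of the multiciliated programme, at 109 and 174 CPM against 13.9 in Cajal-Retzius cells.

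A clustering of the neuron-side cells that used none of the rule genes placed 93, 50 and 47 of the 229 Trp73-positive cells in 3 clusters and the rest in others. Of the 70 Cajal-Retzius cells 49 fell in 1 cluster of 102 cells, of which 93 held Trp73. The first leading gene of that cluster was Ttr, with 123 of its 124 UMIs there in 1 cell outside the rule, followed by Sncg, Aldh1a1 and Serpine2. A further 12 fell in a cluster of 55 cells whose leading genes include Pthlh, Pdgfa and the cilia genes Dynlrb2 and Tekt1, and 3 in a cluster of 49 cells led by Shisa8, Mcidas and Ccno. The other 6 were spread over 4 clusters of mostly Trp73-negative cells. The 49 cells of the first cluster had 15 CPM of Ccno and 537 of Calb2. The 12 of the second had 212 CPM of Ccno, 308 of Calb2, 315 of Tekt1 and 239 of Dynlrb2. The 3 of the third had 1861 CPM of Ccno and no Calb2 UMI. As the clusters were made from these same genes, the values describe the clusters.

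Across Cajal-Retzius cells thinned to 7500 UMIs, the 10 genes with the highest ratio of variance to mean were Tuba1a, Malat1, Actb, Nnat, Gm10116, Cdkn1c, Meg3, Ccno, Tubb2b and Rspo3. Cdkn1c ranged from 0 to 44 UMIs per cell around a median of 3, and Rspo3 from 0 to 28 around 1. Gm10116, a predicted gene, ranged from 0 to 27 around 1 and was seen in 45 of the 68 thinned cells.

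YFP was detected in 53 of the 70 cells (75.7%, 64.0 to 85.2) and in 70.1% of the other neuron-side cells. tdTomato was detected in 12 (17.1%, 9.18 to 28.0) and in 9.09% of the others, and 4 cells held both. At 3 or more UMIs the shares were 60% and 53.6% for YFP and 8.57% and 2.53% for tdTomato. No embryo carried both reporters by design, and the source of the 4 cells with both was not tested. YFP alone was found in 49 cells, tdTomato alone in 8 and neither in 9. Of the 10 cells with Dbx1 UMIs 1 held tdTomato. The 42 cells with at least 3 YFP UMIs and the 17 without YFP had overlapping intervals for Cdkn1a, at 1410 (1320 to 1505) and 1546 CPM (1377 to 1730). Lhx1 was at 332 and 469 CPM, Pbx3 at 54.8 and 230, and Mab21l1 at 72.0 and 209. Ages, litters and genotypes go together in this split and cannot be told apart.

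The libraries shared 1 barcode sequence. The same rule applied to the telencephalic vesicle found 62 of 2580 neuron-side cells, or 2.4% (1.85 to 3.07). Levels were not compared between libraries, which differ in kit and counting software, and ratios within each were set side by side. Of 9357 genes compared in both, 356 (3.80%) were at least 2-fold higher in the vesicle and 415 in the septal explants. The 150 genes in both made up 36.1% of the septal and 42.1% of the vesicle genes. The rule itself is common to both libraries, and no more is read from the overlap. Of the 25 genes named above 17 could be compared in both and 16 were at least 2-fold higher in the vesicle, with Chl1 (1.47-fold) the exception.

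Some genes had ratios above 2 in both libraries. In the vesicle Cdkn1a was 20-fold higher (17.9 to 22.5, septal explants 6.86), Lhx1 8.96-fold (7.54), Serpine2 7.64-fold (13), Ebf3 3.70-fold (6.18), Tbr1 2.34-fold (2.33) and Slc17a6 2.02-fold (2.16). Of the 415 septal genes 67 had a ratio below 1 in the vesicle. Nr2f1 had a ratio of 4.17 (2.57 to 6.51) in the septal explants and 0.328 (0.258 to 0.411) in the vesicle. Calb2 had ratios of 1.73 (1.57 to 1.91) and 0.735 (0.516 to 1.02), and Dbx1 0.914 (0.616 to 1.31) and 2.49 (1.26 to 4.46). Zfp503 was 14.3-fold higher in the septal explants and 2.32-fold in the vesicle. The multiciliated regulators Mcidas (1.13 and 17.0), Foxj1 (2.02 and 16.5), Ccno (1.62 and 12.8) and Gmnc (1.07 and 8.29) had much higher ratios in the vesicle. Both references hold Trp73-positive cells. Against cells without Trp73 UMIs, added after seeing the data, the Ccno ratio was 19.3 (14.5 to 25.7) in the septal explants and 71.3 (50.6 to 101.6) in the vesicle, and the Foxj1 ratio 12.9 and 86.0. The septal Foxj1 ratio was 0.612 when at least 5 Reln UMIs were asked and 0.856 with no Trp73 threshold. The difference between libraries was not tested.

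**Figure D5:**
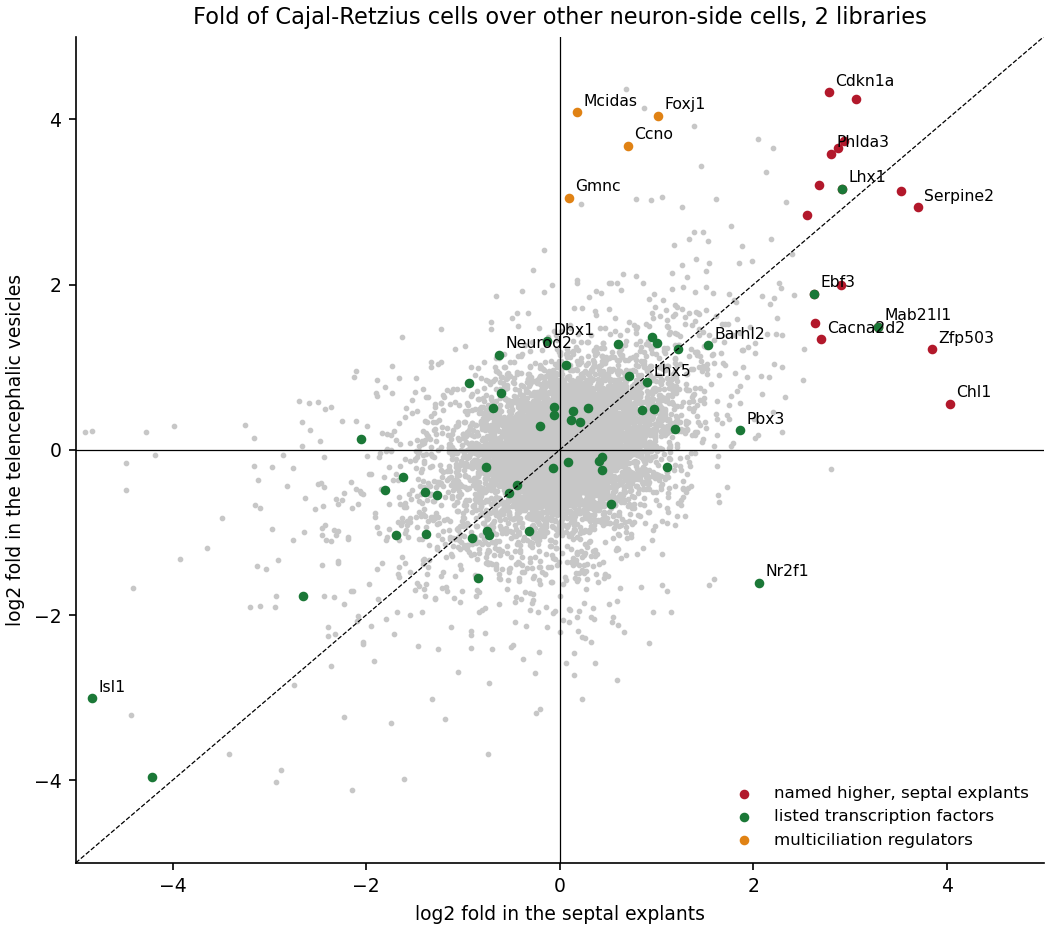
Log2 ratio of Cajal-Retzius cells over other neuron-side cells in the septal explants (horizontal) and in the telencephalic vesicles (vertical), with 1 point per gene and the dashed line marking equal ratios. Cdkn1a and Lhx1 are high on both axes, Nr2f1 is high on the horizontal and low on the vertical axis, and Mcidas, Foxj1, Ccno and Gmnc lie higher on the vertical than on the horizontal axis.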

How the data were processed

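Per the labels and file headers, the authors deposited raw counts of UMIs per gene and barcode, made by Cell Ranger 2.1.1 (septal explants) and Cell Ranger 7.1.0 (telencephalic vesicle) on mm10, without normalisation. The septal counts were made with default parameters, with which that version counts exonic reads. Whether intronic reads were counted for the vesicle is not given in the sources used here. The cells, the 31 gene lists and the named-gene rules were chosen with earlier results of these data known. The named genes are the 25 with the highest lower and the 20 with the lowest upper limit of their ratio, listed genes, the 10 most variable genes and those the study follows. Counts were summed over cells, scaled to CPM and compared for genes with at least 100 UMIs over neuron-side cells. Intervals are exact (Poisson for levels, conditional binomial for ratios, Clopper-Pearson for shares, 95%). Leiden clustering used 2000 variable genes, 30 components, 15 neighbours and resolution 1 (scanpy 1.11.5, igraph 0.11.9). Folds and thinning were tested on simulated data (numpy 2.4.6, scipy 1.17.1). Pseudogene and paralogue reads were not separated. Some genes of the lists are not reported here by name.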

Additional observations from a re-analysis of the deposited data

How the results depend on the processing

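No paired analysis was possible because each condition has 1 library and the results come from no test. The number of Cajal-Retzius cells was 38 with at least 5 Reln UMIs and 165 with no Trp73 threshold, and between 61 and 104 under the other 7 rules tried. At least 2-fold higher genes numbered 756 with a minimum of 50 UMIs, 269 with 200, 1986 with 1 and 1337 at 1.5-fold. At least 2-fold lower genes numbered 850 with at least 5 Reln UMIs, 319 with no Trp73 threshold, 334 with a minimum of 200 UMIs, 4901 with 1 and 1183 at 1.5-fold. The other settings, which included 2 added after seeing the data (a reference without erythroid barcodes and one without Trp73 UMIs), stayed within 1.5 times of the main counts. Lhx1 was seen in 82.4% of thinned cells, 95.7% unthinned and 69.1% at 2 or more UMIs. Of 315 ratios of 21 named genes under the 15 settings that can change a ratio, 5 changed direction, which were Neurod6 (1.11), Foxj1 (0.856) and Ccno (0.623) with no Trp73 threshold and Foxj1 (0.612) and Ccno (0.853) with at least 5 Reln UMIs, and 63 others moved. Of 46 ratios that moved by over 1.5 times, 17 did so with no Trp73 threshold (Cdkn1a 2.84, Isl1 0.294, Lhx1 4.10, Ebf3 2.98, Perp 4.39, Serpine2 5.42, Zfp503 6.66) and 23 with Trp73-positive cells out of the reference (Lhx1 15.8, Phlda3 22.6, Perp 32.1, Serpine2 31.4, Zfp503 34.7 without Trp73 UMIs). These settings change which Trp73-positive or Reln-positive cells are compared. Between 7 and 11 genes of the p53 list were at least 2-fold higher, and whether they were the same genes was not counted. With 70 cells from 1 library, embryo-to-embryo spread is unknown, and genes of a few UMIs are seen only in part.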
